A study of Mus musculus with 3 samples.

Results

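The genes described here are 10 genes of glucose and lactate handling, of the 32285 genes counted in each library: the glucose transporter genes Slc2a1 and Slc2a3, the lactate carrier genes Slc16a1 and Slc16a3, the hexokinase genes Hk1 and Hk2, the phosphofructokinase genes Pfkl and Pfkp, the pyruvate kinase gene Pkm and the lactate dehydrogenase gene Ldha. They were chosen by symbol as the members of this pathway that come in alternative forms, and all 10 were measured and passed the filter on low counts. Ldhb was added as the partner of Ldha, which makes 5 pairs with Pkm left unpaired. Levels were compared over 4 cell states and 3 libraries of mouse blastoids, which are blastocyst-like structures made in culture from pluripotent cells.

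The starting cells were mouse embryonic stem cells of the E14 line, grown in serum with 1000 U/mL LIF and with 10 µM T0901317, an agonist of the liver X receptors, which include Nr1h2, and the labels call them Nr1h2-activated. Cells were seeded at about 5 per microwell. On the first day the medium held rhFGF4 (12.5 ng/mL), heparin (0.5 µg/mL), CHIR99021 (3 µM), which inhibits GSK3, and Y-27632 (2 µM), which inhibits ROCK. From then on BMP4 (5 ng/mL) and A83-01 (0.5 µM), an inhibitor of TGF-β and activin receptors, took the place of Y-27632, and blastoids were picked by hand on day 5. All 3 libraries, titled Type I, Type II and Type III, had this same treatment, all came from 1 cell line, and what sets the types apart is not stated in the labels. Each type had 1 library, and no untreated library is analysed here.

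Glucose enters cells down its gradient through transporters of the Slc2a family. Hexokinase traps it as glucose 6-phosphate, phosphofructokinase commits it to glycolysis, pyruvate kinase forms pyruvate, and lactate dehydrogenase interconverts pyruvate and lactate. Lactate crosses the plasma membrane with a proton through monocarboxylate carriers, of which MCT1 (Slc16a1) has a high affinity and works in either direction, while MCT4 (Slc16a3) is known for export from strongly glycolytic cells. In the mouse blastocyst glucose uptake and glycolysis increase as the trophectoderm forms, and the visceral endoderm, the outer layer that develops from the primitive endoderm, is an absorptive epithelium that feeds the epiblast. Naive pluripotent cells use respiration and glycolysis together, and primed ones rely more on glycolysis.

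The promoters of the lactate carrier genes and of Slc2a1 are shown because the differences between states described below turn on these genes. Each sequence is the RefSeq promoter of build GRCm38.p6, written 5′ to 3′ on the strand of the gene. It runs from 250 bases before to 50 bases after the start annotated for that promoter. This start can differ from the gene positions given below, and the Slc16a3 window lies wholly inside the gene as positioned there. Capitals mark ACGTG, the core of the element bound by hypoxia-inducible factors, on either strand. Where the pattern meets its reverse complement the capitals read CACGTG, which is also the E-box bound by MYC.
Slc16a1, chr3:104638414-104638713, plus strand: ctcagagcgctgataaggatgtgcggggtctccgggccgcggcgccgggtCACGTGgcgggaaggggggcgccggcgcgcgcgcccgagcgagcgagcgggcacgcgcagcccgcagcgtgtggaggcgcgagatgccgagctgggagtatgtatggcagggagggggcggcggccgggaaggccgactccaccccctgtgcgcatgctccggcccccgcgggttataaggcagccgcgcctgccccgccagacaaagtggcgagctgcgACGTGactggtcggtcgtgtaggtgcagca
Slc16a3, chr11:120948817-120949116, plus strand: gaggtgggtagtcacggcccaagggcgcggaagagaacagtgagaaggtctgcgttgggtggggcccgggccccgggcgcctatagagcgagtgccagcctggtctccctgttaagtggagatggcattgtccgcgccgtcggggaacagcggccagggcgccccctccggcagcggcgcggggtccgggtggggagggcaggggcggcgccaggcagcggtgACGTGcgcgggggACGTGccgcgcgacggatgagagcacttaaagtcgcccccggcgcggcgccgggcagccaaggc
Slc2a1, chr4:119108495-119108794, plus strand: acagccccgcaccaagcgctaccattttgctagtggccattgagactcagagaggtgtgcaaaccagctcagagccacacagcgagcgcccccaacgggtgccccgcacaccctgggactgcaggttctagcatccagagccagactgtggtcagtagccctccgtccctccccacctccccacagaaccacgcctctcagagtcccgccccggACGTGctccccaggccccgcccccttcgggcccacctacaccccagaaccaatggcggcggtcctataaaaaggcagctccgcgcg
The pattern occurs 3 times in the Slc16a1 window, counting both strands and with 2 of these overlapping in 1 CACGTG. It occurs 2 times in the Slc16a3 window and 1 time in the Slc2a1 window, without the longer form. Hk2 has 2 occurrences, 1 of the windows of Ldha has 5 and 1 each of the windows of Pkm and Hk1 has 2. The windows of Pfkl, Pfkp and Ldhb have 0. Of 32851 mouse promoters of the same length, 19.6% hold ACGTG on either strand and 7.15% hold CACGTG. The pattern was thus present in the windows of both lactate carriers, and its part in their levels was not tested. Slc2a3 is named only.

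Barcodes with at least 10000 UMIs (counted RNA molecules) and at most 20% mitochondrial UMIs were used, 1405, 1992 and 272 of the 6813, 9265 and 2310 deposited for Types I, II and III. A barcode was visceral endoderm (VE) where Ttr, Rbp4, Apoa1 and Apoa2 together reached 1000 CPM (counts scaled to a fixed library total), otherwise early primitive endoderm (early PrE) where Gata6, Sox17 and Gata4 reached 100 CPM, otherwise trophectoderm (TE) where Krt8, Krt18 and Krt19 reached 800 CPM, and otherwise epiblast (EPI) where Pou5f1 reached 150 CPM. VE had 443, 563 and 19 barcodes in Types I, II and III, early PrE had 271, 376 and 45, TE had 208, 278 and 72, and EPI had 351, 582 and 121. A further 132, 193 and 15 barcodes met no threshold. Median depths per state and library ran from 37920 to 92030 UMIs, and 1 kept barcode was shared between Types I and II and 0 between the other pairs of libraries. No doublet caller was run.

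Markers that the thresholds did not use followed the state names, with limits, and those of early PrE separated it only weakly from VE. The 6 other VE genes, led by Apoc2 and Apob, summed to 4197 to 5736 CPM in VE and 1440 to 1658 CPM in early PrE. They summed to at most 65.6 CPM in TE and EPI, but Cubn was higher in early PrE than in VE in each library. The 6 early PrE genes summed to 5108, 4611 and 4430 CPM in early PrE of Types I, II and III. In VE they summed to 3968, 3979 and 4396 CPM. Of these Lama1, Lamb1 and Col4a1 were higher in early PrE in each library, while Dab2 and Foxa2 were higher in VE and Pdgfra was mixed. The 7 epiblast genes summed to 4677 to 4991 CPM in EPI. The epiblast sum was 1255 to 1521 CPM in early PrE and 487 to 1359 CPM in TE, mostly from Dppa5a, while Nanog was at most 14.6 CPM outside EPI against 133 to 202 CPM in EPI. The 8 trophectoderm genes summed to 547 to 753.5 CPM in TE and at most 138 CPM elsewhere, led by Gata2. Tfap2c was 72.9 to 95.2 CPM in TE against 26.4 to 40.7 CPM in EPI, and Gata3 was 39.1 to 41.1 CPM in TE. The regulators Cdx2, Eomes and Elf5, however, were low in TE. Cdx2 was 4.82 to 12.5 CPM in TE and 10.9 to 18.9 CPM in VE. Eomes was 1.77 to 2.47 CPM in TE and higher in each other state, and Elf5 was 0.475 to 1.013 CPM in TE. The TE label thus rests on keratins, Gata2, Gata3, Tfap2c and Cldn4. Early PrE of Type III also held 32.5 CPM of blood or endothelial genes and 11.1 CPM of 2-cell-stage genes. Of the VE barcodes 380, 494 and 18 also met the keratin threshold, as did 140, 182 and 15 early PrE barcodes. The Pou5f1 threshold was met by 7, 14 and 0 VE, 44, 66 and 17 early PrE and 15, 29 and 10 TE barcodes. Leaving out all barcodes of other states above the Pou5f1 threshold ended no call in any of the 6 comparisons of states. Keeping only barcodes above a single threshold, which left 7, 5 and 1 VE barcodes, turned the direction of 7 single values and ended 12 calls. This setting also drops VE barcodes that meet the early PrE threshold of Gata6, Sox17 and Gata4, which need not be mixtures. Here mixtures, the loss of these barcodes and the number of barcodes cannot be told apart.

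UMIs were summed per library and state, and states were compared over these 12 sums with edgeR's quasi-likelihood test, with library as a block and p-values adjusted over 13616 genes. Levels below are TMM-scaled CPM, and log2 fold changes are called at an adjusted p under 0.05. The libraries of different types stand in for replicates, so a p-value measures how alike a difference was across the 3 types, and fewer cells with a transcript cannot be told apart from less of it per cell in these sums. Plain totals in place of TMM moved the median of all genes by 0.16 (log2) in VE over EPI and in early PrE over EPI, by 0.32 in TE over EPI, by -0.16 in VE and in early PrE over TE, and by 0.10 in the comparison inside the epiblast.

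**Figure D1:**
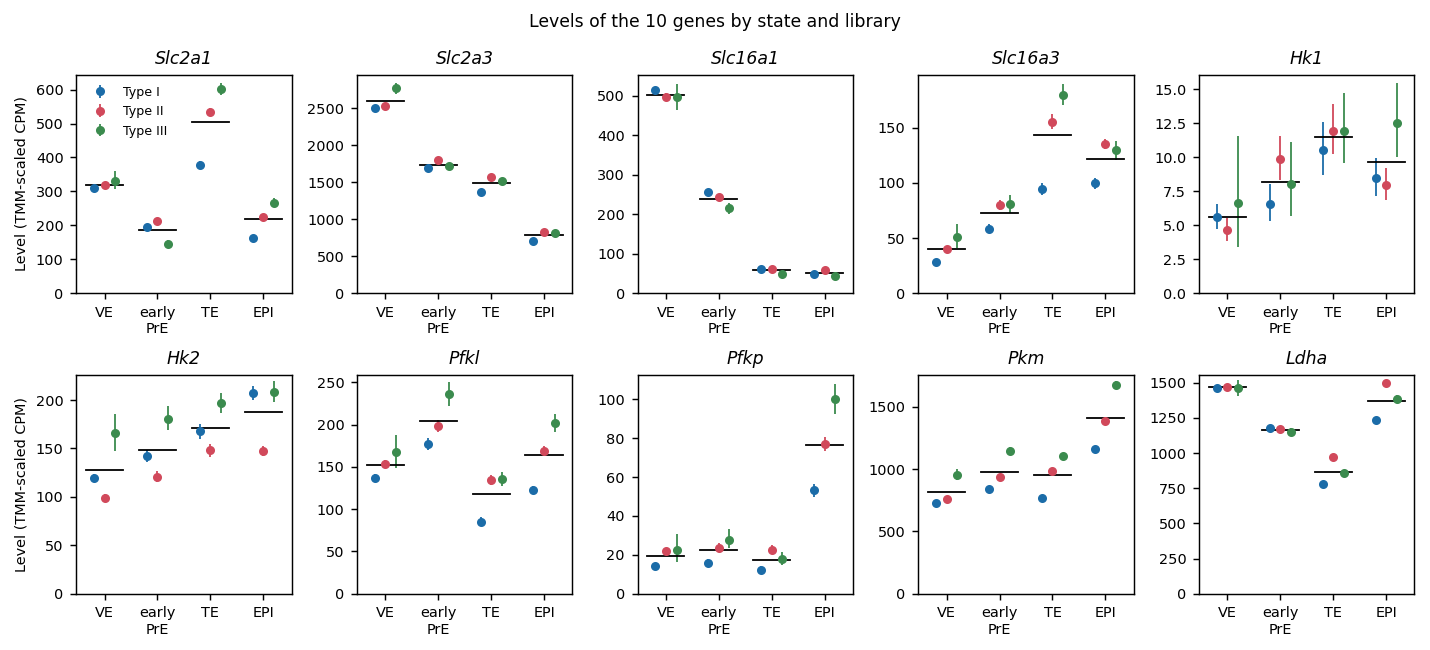
Level of each gene in TMM-scaled CPM (y axis, from 0, a scale of its own for each gene) by state (x axis). Points are the 3 libraries with 95% Poisson intervals for counting error, and lines are means. Slc16a1 stands highest in VE, at 496 to 514 CPM, Slc16a3 highest in TE and EPI, and Pfkp highest in EPI, at 53.1 to 99.99 CPM.

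Most of the 10 genes differed between most pairs of states, as did most genes. Between VE and EPI 8 of the 10 were called against 75.7% of all genes tested, 3 higher in VE (background 38%) and 5 lower (37.7%). Between early PrE and EPI 8 were called (background 70.6%), 3 higher (36.1%) and 5 lower (34.5%). Between TE and EPI 6 were called (background 58.2%), 2 higher (28%) and 4 lower (30.2%), a split that became 6 higher and 3 lower with plain totals. VE differed from TE in 9 (background 65.6%), 4 higher (33%) and 5 lower (32.6%). Early PrE differed from TE in 9 (background 59.4%), 5 higher (30.3%) and 4 lower (29.1%), or 3 higher and 5 lower with plain totals. These shares are close to the background in the 3 comparisons with EPI and above it in VE and early PrE against TE.

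VE and early PrE were the closest states, and 8 of the 10 genes were called between them (4 higher, background 11.8%, and 4 lower, background 10.9%) where 22.7% of all genes were. The median size of the log2 fold change was 0.49 for the 10 genes and 0.22 for all genes. The count was 4 without Type II. It was 2 when only barcodes above a single threshold were kept, and the values turned by this setting included Slc2a1 (-0.63) and Ldha (-0.46) in VE over EPI.

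With a 2-fold change also required, 4 of the 10 genes were called in VE over EPI (background 39.4%), 3 in early PrE over EPI (33.3%) and 2 in TE over EPI (21.2%). There were 1 in VE over early PrE (6.5%), 3 in VE over TE (30.1%) and 2 in early PrE over TE (24.6%). The median log2 fold change of the 10 genes was -0.33 in VE over EPI, -0.21 in early PrE over EPI and 0.03 in TE over EPI (0.35 with plain totals), and that of all genes was 0.00, 0.02 and -0.02. The 10 genes thus had members called in both directions in each comparison.

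**Figure D2:**
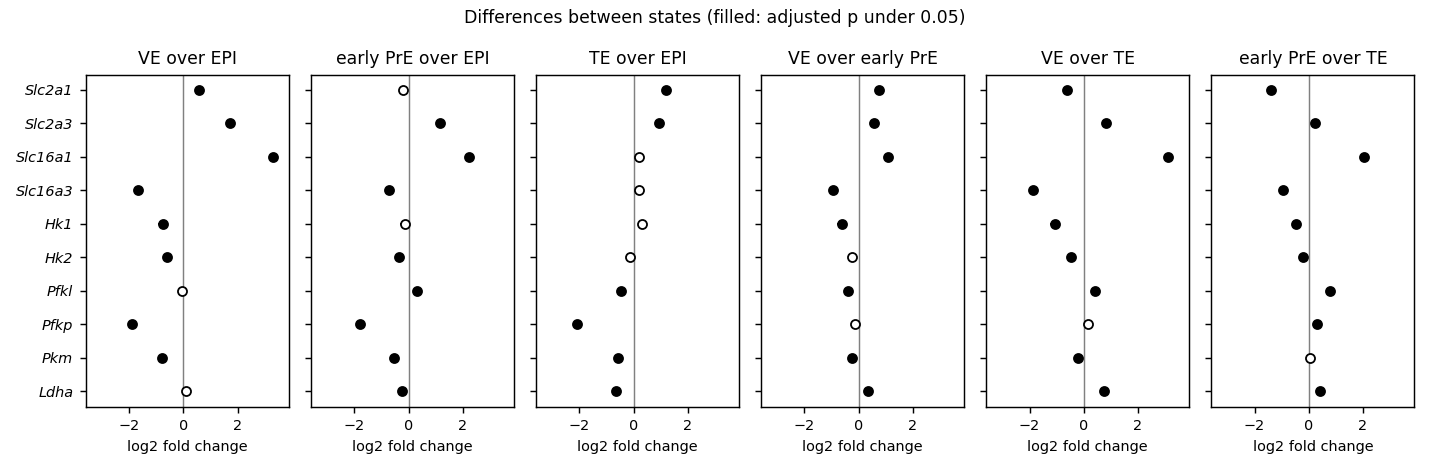
Log2 fold change of each gene (x axis) in the 6 comparisons of states, with the standard error as a bar where it is wider than the point. Filled points passed an adjusted p of 0.05. Slc16a1 lies farthest to the right over EPI and TE in VE (3.29 and 3.11), and Pfkp lies left of 0 in every state set against EPI (-1.92, -1.77 and -2.09).

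Slc16a1 encodes MCT1 (ENSMUSG00000032902, chromosome 3, 104638668 to 104658462, mm10). Its level was 514, 498 and 496 CPM in VE of Types I, II and III, 256, 243 and 215 CPM in early PrE, 61.6, 62.8 and 49.95 CPM in TE and 48.4, 60.04 and 44.6 CPM in EPI. The order was VE, early PrE, then TE and EPI together, and the groups overlapped only between TE and EPI. VE averaged 502.5 ± 9.96 CPM (SD, n = 3 libraries) and EPI 51.0 ± 8.04 CPM, a log2 difference of 3.29 (SE 0.0880, adjusted p = 3.715e-13), the highest of the 10 genes. Early PrE exceeded EPI by 2.22 (SE 0.0856, adjusted p = 1.198e-11), and VE exceeded early PrE by 1.07 or 2.11-fold (SE 0.0802, adjusted p = 3.98e-07), higher in 3 of 3 libraries. The last difference was 0.28 (adjusted p = 0.533) with only the few VE barcodes above a single threshold. TE and EPI differed by 0.19 (adjusted p = 0.0824), which became 0.51 with plain totals (adjusted p = 0.000125).

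Slc16a3, which encodes MCT4 (ENSMUSG00000025161, chromosome 11, 120948480 to 120960868), had the reverse order between the endoderm and the other states. Its level was 28.1, 40.2 and 51.2 CPM in VE, 58.5, 80.02 and 80.6 CPM in early PrE, 94.5, 155 and 180 CPM in TE and 99.5, 135 and 129 CPM in EPI. VE was below TE and EPI in all 3 libraries with no overlap, early PrE lay between them, and TE and EPI overlapped. VE fell by 1.69 against EPI on the log2 scale (SE 0.0989, adjusted p = 6.675e-10) and by 1.89 against TE (SE 0.0998, adjusted p = 3.754e-10). Early PrE fell by 0.74 against EPI (adjusted p = 4.188e-06), and VE fell by 0.95 against early PrE (adjusted p = 1.118e-05). TE over EPI was 0.20 (adjusted p = 0.0681), and 0.31 (adjusted p = 0.0239) without Type I, the library with the lowest Slc16a3 in every state. It was 0.52 (adjusted p = 0.000281) with plain totals.

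The carriers were also described over finer bins of the values that define VE and early PrE, which restates the difference between these states and adds no further support to it. In endoderm barcodes (VE and early PrE together) divided by their summed Ttr, Rbp4, Apoa1 and Apoa2, Slc16a1 of Type I was 197 CPM below 250 CPM of these carrier genes, 314 and 326 CPM in the next bins up to 1000 CPM, and 439, 492 and 540 CPM in the bins above. Type II gave 176, 323, 359, 420, 462 and 546 CPM for the same bins. Slc16a3 went from 64.3 CPM in the lowest bin to 18.5 CPM in the highest in Type I, and from 89.3 to 25.8 CPM in Type II. Slc16a1 was higher in each next bin of both libraries, while Slc16a3 was not lower in each, at 32.1 and then 35.6 CPM above the VE threshold in Type I and 50.5 and then 55.4 CPM across it in Type II. The bins held 48 to 184 barcodes in Type I and 62 to 254 in Type II. Type III had enough barcodes in the lowest bin only, at 192 CPM of Slc16a1 and 89.9 CPM of Slc16a3. These bin values are unscaled CPM, the bins share 1 library each, and they are given with no test.

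**Figure D3:**
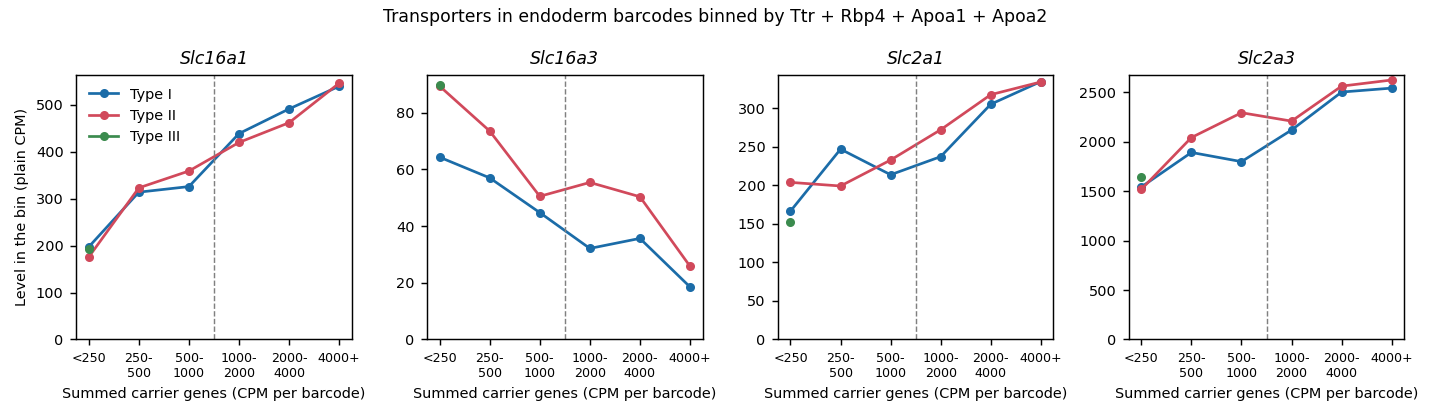
Unscaled CPM of 4 transporter genes (y axis, from 0) in endoderm barcodes binned by the summed CPM of Ttr, Rbp4, Apoa1 and Apoa2 (x axis), 1 line per library for bins of at least 20 barcodes. The dashed line marks the VE threshold of 1000 CPM. From the lowest to the highest bin Slc16a1 goes from 197 to 540 CPM in Type I and from 176 to 546 CPM in Type II, and Slc16a3 goes down.

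Both carriers need an accessory glycoprotein to reach the membrane, basigin (Bsg) for both, with embigin (Emb) as a further partner in this carrier family. Emb was 874 ± 33.8 CPM in VE, 333 ± 18.8 CPM in early PrE, 81.5 ± 7.47 CPM in TE and 175 ± 11.7 CPM in EPI (SD, n = 3). It rose by 2.32 in VE over EPI (SE 0.0716, adjusted p = 1.014e-12) and by 0.93 in early PrE over EPI, and fell by 1.10 in TE against EPI (SE 0.0721, adjusted p = 9.084e-09). Bsg, chosen after its values were seen, was 965 ± 46.5 CPM in VE, 869 ± 62.2 CPM in early PrE, 512 ± 73.0 CPM in TE and 467.5 ± 44.1 CPM in EPI. Slc16a1 and Emb had their highest levels in VE, and Emb was lower in TE than in EPI.

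Slc2a3 encodes GLUT3, a high-affinity glucose transporter (ENSMUSG00000003153, chromosome 6, 122727809 to 122801640). It was 2497, 2536 and 2769 CPM in VE, 1697, 1796 and 1714 CPM in early PrE, 1371, 1575 and 1522 CPM in TE and 704, 826 and 819.7 CPM in EPI. No 2 states overlapped, and EPI was lowest. Against EPI it rose by 1.73 in VE (3.325-fold, SE 0.0596, adjusted p = 2.621e-12), by 1.15 in early PrE (adjusted p = 2.297e-10) and by 0.93 in TE (adjusted p = 6.102e-09). The neighbours in this order were closer, with VE over early PrE at 0.58 (adjusted p = 6.534e-06) and early PrE over TE at 0.22 (adjusted p = 0.00383). The last call ended with plain totals (0.06, adjusted p = 0.358) and without Type II (0.24, adjusted p = 0.0534).

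Slc2a1 encodes GLUT1, the widespread transporter of basal glucose uptake (ENSMUSG00000028645, chromosome 4, 119108711 to 119137983), and had another order. It was 379, 534 and 602 CPM in TE, 310.3, 318 and 332 CPM in VE, 164, 225 and 267 CPM in EPI and 197, 212 and 147 CPM in early PrE. TE was above every other state in each library, VE came next, and EPI and early PrE overlapped. TE exceeded EPI by 1.21 (2.315-fold, SE 0.150, adjusted p = 6.516e-06), and early PrE fell by 1.40 against TE (SE 0.153, adjusted p = 1.551e-06). VE exceeded early PrE by 0.77 (SE 0.153, adjusted p = 0.00228) and EPI by 0.58 (adjusted p = 0.00283), and fell by 0.63 against TE (adjusted p = 0.00181). Early PrE over EPI was -0.19 (adjusted p = 0.278), -0.43 without Type I (adjusted p = 0.0211) and 0.09 without Type III (adjusted p = 0.397). The 2 glucose transporters thus differed in which state was highest, TE for Slc2a1 and VE for Slc2a3.

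Hk2 encodes the inducible hexokinase that binds mitochondria (ENSMUSG00000000628, chromosome 6, 82725025 to 82774454). It was 120, 99.05 and 166 CPM in VE, 142, 121 and 181 CPM in early PrE, 168, 148 and 197 CPM in TE and 207, 147 and 209 CPM in EPI. States overlapped, because Type II was lowest in every state, but within each library VE was lowest. VE fell by 0.59 against EPI (SE 0.0814, adjusted p = 9.261e-06) and by 0.46 against TE (adjusted p = 0.000167), and early PrE fell by 0.35 against EPI (adjusted p = 0.00105). VE over early PrE was -0.24 (adjusted p = 0.0511) and passed in 9 of the other settings tried, among them without Type III (-0.27, adjusted p = 0.0180). TE over EPI was -0.13 (adjusted p = 0.166), 0.19 with plain totals (adjusted p = 0.0486) and -0.27 with barcodes thinned to 10000 UMIs (adjusted p = 0.00798), so its direction depended on the scaling. Early PrE over TE was -0.22 (adjusted p = 0.0273), and this call ended with thinned barcodes (-0.020, adjusted p = 0.884), without Type I (-0.19, adjusted p = 0.132) and without Type II (-0.18, adjusted p = 0.240).

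Hk1, the constitutive hexokinase (ENSMUSG00000037012, chromosome 10, 62268855 to 62379908), was near the limit of detection. It was 5.60, 4.63 and 6.61 CPM in VE, 6.60, 9.84 and 8.06 CPM in early PrE, 10.5, 11.9 and 11.9 CPM in TE and 8.49, 7.96 and 12.5 CPM in EPI, from 12 to 187 UMIs per sum. VE lay below TE and EPI without overlap. It fell by 1.07 against TE (SE 0.180, adjusted p = 9.152e-05) and by 0.76 against EPI (SE 0.178, adjusted p = 0.00127), the latter at adjusted p = 0.0557 with thinned barcodes. VE over early PrE was called at -0.61 (adjusted p = 0.0275) but was -0.24 (adjusted p = 0.623) without Type II, and early PrE over TE was called at -0.46 (adjusted p = 0.0318) but not without Type I (-0.33, adjusted p = 0.243) or without Type III (-0.43, adjusted p = 0.0608). TE over EPI was 0.32 (adjusted p = 0.112), 0.44 without Type III (adjusted p = 0.0462) and 0.64 with plain totals (adjusted p = 0.00344).

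Pfkp encodes the platelet-type phosphofructokinase (ENSMUSG00000021196, chromosome 13, 6579768 to 6648777) and was higher in EPI than in each other state. It was 53.1, 76.8 and 99.99 CPM in EPI, against 14.4, 21.9 and 22.6 CPM in VE, 15.7, 23.6 and 27.9 CPM in early PrE and 12.01, 22.6 and 17.9 CPM in TE. EPI stood apart without overlap, and the other 3 states overlapped. Against EPI it fell by 1.92 in VE (SE 0.106, adjusted p = 3.746e-10), by 1.77 in early PrE (adjusted p = 1.092e-09) and by 2.09 in TE (SE 0.107, adjusted p = 7.918e-10). Among the other states only early PrE over TE was called (0.31, adjusted p = 0.0338), and not without Type I (0.31, adjusted p = 0.131) or Type III (0.21, adjusted p = 0.119), while the value without Type II was 0.51 (adjusted p = 0.0174).

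Pfkl, the liver-type form of the same enzyme (ENSMUSG00000020277, chromosome 10, 77986947 to 78010083), did not follow Pfkp. It was 177, 198.5 and 236 CPM in early PrE, 122, 169 and 202 CPM in EPI, 137, 153 and 167 CPM in VE and 85.0, 134 and 135 CPM in TE. Type I was lowest and Type III highest in each state, and EPI overlapped each of the other states across libraries, while early PrE, VE and TE did not overlap each other. Within each library early PrE was highest and TE lowest. Early PrE exceeded TE by 0.80 (SE 0.0921, adjusted p = 2.697e-06) and EPI by 0.33 (adjusted p = 0.00419, and 0.23 with adjusted p = 0.0511 without Type I). VE fell by 0.40 against early PrE (adjusted p = 0.00595, and adjusted p = 0.0737 at 0.41 without Type II) and exceeded TE by 0.40 (adjusted p = 0.00153). TE fell by 0.47 against EPI (adjusted p = 0.000439), which was -0.14 (adjusted p = 0.175) with plain totals.

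Pkm encodes pyruvate kinase M (ENSMUSG00000032294, chromosome 9, 59656368 to 59679375), whose transcripts are spliced to a constitutive M1 or a regulated M2 form that 3′ counts cannot separate. It was 1157, 1385 and 1675 CPM in EPI, 843, 935 and 1148 CPM in early PrE, 771, 980.1 and 1106 CPM in TE and 728, 758 and 953 CPM in VE. EPI was highest in each library. Against EPI it fell by 0.78 in VE (SE 0.0599, adjusted p = 1.352e-08), by 0.52 in early PrE (adjusted p = 1.515e-06) and by 0.56 in TE (adjusted p = 1.312e-06, and by 0.23 with plain totals, adjusted p = 0.00153). VE was also lower than early PrE and TE by 0.26 and 0.22 (adjusted p = 0.00603 and 0.00427), but not called in either without Type II (-0.24, adjusted p = 0.177, and -0.15, adjusted p = 0.214). Early PrE over TE was 0.04 (adjusted p = 0.617) and turned negative with plain totals (-0.13, adjusted p = 0.0478) and with RLE size factors (-0.02). In the last 500 bases of the annotated transcripts, 60.0% of 50-base windows of Pkm matched other annotated genes, so its level is uncertain.

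Ldha encodes the muscle-type subunit of lactate dehydrogenase, which favours lactate formation (ENSMUSG00000063229, chromosome 7, 46841475 to 46855627). It was 1465, 1472 and 1461 CPM in VE, 1233, 1499 and 1386 CPM in EPI, 1176, 1173 and 1150 CPM in early PrE and 779, 969 and 855 CPM in TE. VE and EPI overlapped, and TE was lowest in each library. TE fell by 0.66 against EPI (SE 0.0668, adjusted p = 7.665e-07, and by 0.34 with plain totals), VE exceeded TE by 0.76 (adjusted p = 1.084e-07) and early PrE exceeded TE by 0.43 (adjusted p = 5.399e-05, and by 0.27 with plain totals). VE over early PrE was 0.33 (adjusted p = 0.00260) and missed the threshold without Type II (0.33, adjusted p = 0.0679). Early PrE over EPI was -0.23 (adjusted p = 0.00622), -0.18 without Type II (adjusted p = 0.135) and -0.07 with plain totals (adjusted p = 0.320). VE over EPI was 0.10 (adjusted p = 0.186) and 0.26 with plain totals (adjusted p = 0.00156).

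Its partner Ldhb, the heart-type subunit (ENSMUSG00000030246, chromosome 6, 142490249 to 142507957), was highest in EPI. It was 203, 218.5 and 256 CPM in EPI and between 40.7 and 99.9 CPM in every other sum. Against EPI it fell by 1.93 in VE (SE 0.165, adjusted p = 4.76e-08), by 2.14 in early PrE (SE 0.163, adjusted p = 1.849e-08) and by 1.62 in TE (SE 0.157, adjusted p = 5.118e-07). Early PrE was lower than TE by 0.52 (adjusted p = 0.0137), but not without Type II (-0.33, adjusted p = 0.175). VE over TE was -0.31 (adjusted p = 0.112), -0.43 without Type III (adjusted p = 0.000827) and -0.47 with plain totals (adjusted p = 0.0190). Of the transcript-end windows 41.4% of Ldha and 54.5% of Ldhb matched other genes, so these levels are uncertain too, and no window of the other members matched.

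Isozyme choice was read as the share of the first gene in the UMIs of its pair, which needs no scaling between libraries. Forms outside a pair, such as Pfkm for phosphofructokinase, are not counted in its share. Capture by the 3′ assay differs between genes, so a share does not give a ratio of proteins, and each share is compared with the same pair in another state. For each pair the spread of the mean log2 ratios of the 4 states (their summed squared deviations) was tested by exact two-sided permutation of the state labels within libraries, whose smallest possible p is 0.001736, with adjustment over the 5 pairs. The largest difference between states is given as the size of the effect, and the p beside it is that of the test over all 4 states. The test passed in 4 of the 5 pairs. The largest difference of each pair, Hk1 to Hk2 included, was in the same direction in 3 of 3 libraries. Its states were picked from the means of these same libraries, so this count adds no support.

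The lactate carriers changed most. Slc16a1 made up 94.8%, 92.5% and 90.6% of the pair in VE of Types I, II and III and 81.4%, 75.2% and 72.7% in early PrE. It was 39.5%, 28.8% and 21.7% in TE and 32.7%, 30.8% and 25.6% in EPI. The endoderm states lay above 72% and the others below 40%, so the pair changed its leading member. The log2 ratio differed by 4.95 ± 0.15 (SD, n = 3) between VE and TE, 30.99-fold (exact permutation p = 0.00694, adjusted p = 0.00868).

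The phosphofructokinase pair set the epiblast apart. Pfkl made up 69.7%, 68.7% and 66.9% of the pair in EPI, against 90.5%, 87.5% and 88.1% in VE, 91.9%, 89.4% and 89.4% in early PrE and 87.6%, 85.6% and 88.3% in TE. The ratio differed by 2.10 ± 0.18 between early PrE and EPI, 4.28-fold (exact permutation p = 0.00347, adjusted p = 0.00579). In the dehydrogenase pair Ldha was 85.8%, 87.3% and 84.4% in EPI, 91.35%, 90.7% and 94.55% in TE, 95.4%, 95.4% and 96.6% in early PrE and 95.98%, 95.75% and 96.6% in VE. That ratio differed by 2.03 ± 0.34 between VE and EPI (exact permutation p = 0.001736, adjusted p = 0.00434). It differed by 1.100 between these states with only barcodes above a single threshold, where the exact permutation test over the 4 states gave an adjusted p of 0.0399. The second gene of each of these pairs thus took its largest share in the epiblast, 31.6% on average for Pfkp.

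In the glucose transporter pair Slc2a1 was 21.6%, 25.3% and 28.35% in TE and 18.9%, 21.4% and 24.6% in EPI, against 11.05%, 11.15% and 10.7% in VE and 10.4%, 10.6% and 7.89% in early PrE. The ratio differed by 1.66 ± 0.49 between TE and early PrE, 3.16-fold (exact permutation p = 0.001736, adjusted p = 0.00434). The shares of TE and EPI overlapped across libraries, but within each library the share was higher in TE. Both genes were higher in TE. The hexokinase pair did not pass the test: Hk1 was 4.26% ± 0.37 in VE, 5.41% ± 1.84 in early PrE, 6.37% ± 0.96 in TE and 4.91% ± 0.88 in EPI (SD, n = 3). Its ratio differed by 0.59 ± 0.18 between TE and VE (exact permutation p = 0.123, adjusted p = 0.123), which passed at 0.69 with thinned barcodes (adjusted p = 0.00434).

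**Figure D4:**
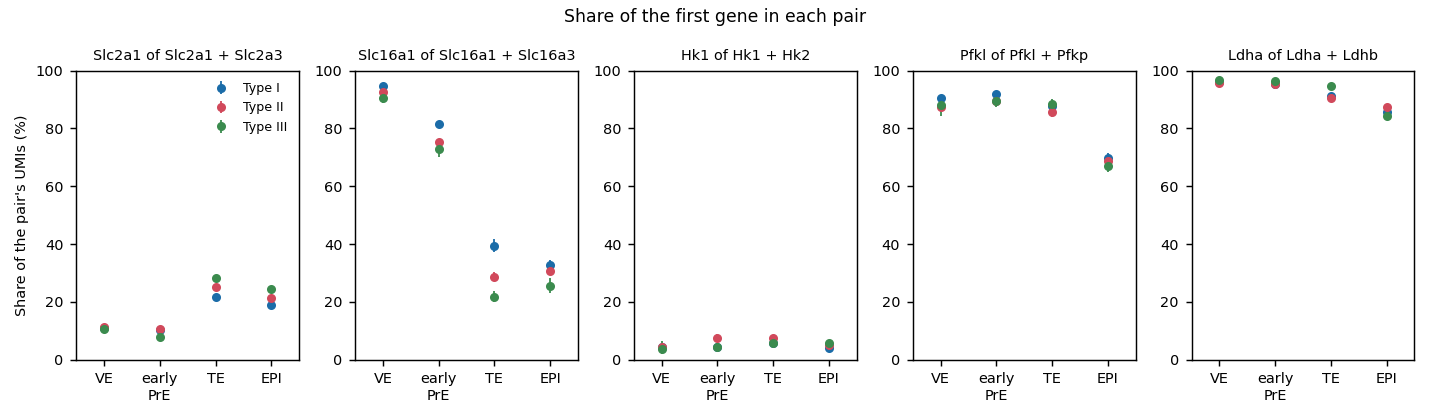
Share of the first gene in the UMIs of its pair (y axis, 0 to 100%) by state (x axis) in the 3 libraries, with exact 95% binomial intervals for counting error where they are wider than the point. Slc16a1 lies above 72% in the endoderm states and below 40% in TE and EPI, and the share of Pfkl is lowest in EPI, at 66.9% to 69.7%.

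Whether single barcodes hold 1 member of a pair or both was read after thinning each barcode to 10000 UMIs, so that depth is equal. Over the 3 libraries 74.3% of 1025 VE barcodes had Slc16a1 alone, 21.9% had both carriers, 1.17% had Slc16a3 alone and 2.63% had neither. In EPI the shares were 14.9%, 20.9%, 33.6% and 30.65% of 1054 barcodes, and in TE 17.9%, 28.3%, 31.2% and 22.6% of 558. Early PrE barcodes held Slc16a1 alone in 46.8% and both in 31.1% of 692. Slc16a1 had a UMI in 96.2% of VE barcodes (exact 95% binomial interval 94.8% to 97.3%) and 35.8% of EPI barcodes (32.9% to 38.75%), and Slc16a3 in 23.0% (20.5% to 25.7%) and 54.5% (51.4% to 57.5%). Without thinning, at median depths of 46070 and 49550 UMIs, these were 99.3% and 79.0% for Slc16a1 and 49.3% and 85.1% for Slc16a3. No state is known to lack either gene, so none of these shares measures the background.

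For phosphofructokinase, Pfkp had a UMI in 40.99% of EPI barcodes (38.0% to 44.0%), 16.3% of VE, 19.8% of early PrE and 17.4% of TE barcodes. Of the EPI barcodes 30.9% held both Pfkl and Pfkp and 10.1% Pfkp without Pfkl, where Pfkl had a UMI in 73.15% of all EPI barcodes. The barcodes of a library share that library, and these shares carry counting error only. For the lactate carriers the order of the states was the same in the shares and in the mean levels.

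**Figure D5:**
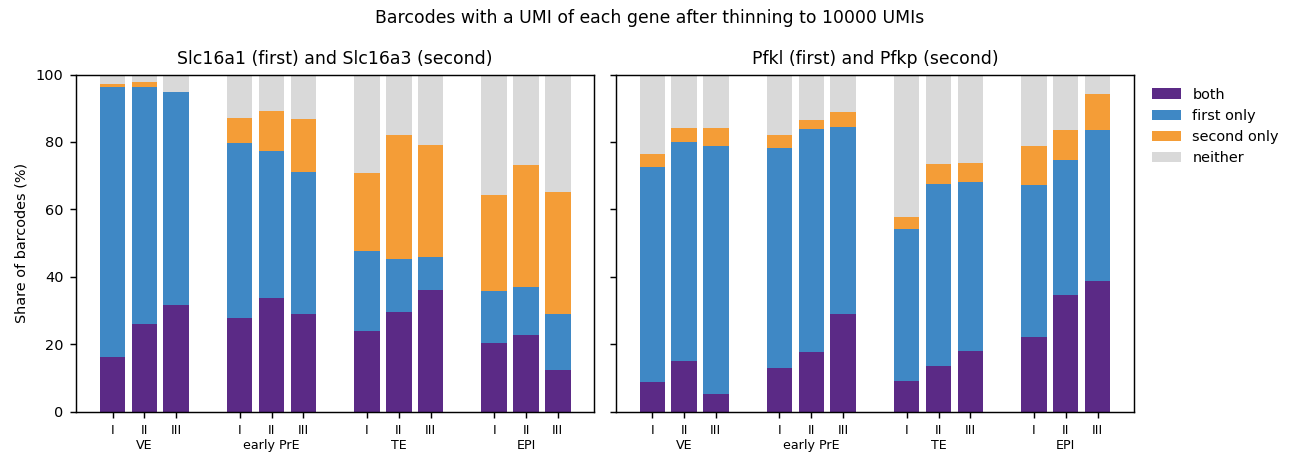
Share of barcodes (y axis, 0 to 100%) with a UMI of both genes, 1 of them or neither after thinning to 10000 UMIs, by state and library (x axis; I, II and III are the types). VE bars are mostly Slc16a1 alone, and EPI bars hold the largest share with both Pfkl and Pfkp.

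Inside the epiblast, barcodes were divided by whether Pou3f1, Otx2, Fgf5 and Nodal together exceeded Zfp42, Klf2, Esrrb and Nanog (primed side, 56, 139 and 13 barcodes) or not (naive side, 295, 443 and 108). This is a range along a score and not a cell type, and 79, 146 and 27 barcodes lay within 1 log2 unit of the division. Of the 10 genes 7 were called against 20.7% of 11189 genes tested, 5 higher on the primed side (background 10.4%) and 2 lower (10.3%), or 6 and 1 with plain totals. This share is above the background, and the median size of the log2 fold change was 0.37 for the 10 genes and 0.22 for all genes. The count was 4 without library as a block. Levels here are scaled over these 6 sums alone and are not comparable with the state levels.

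Slc2a1 was 253, 277 and 508 CPM on the primed side and 127, 175 and 207 CPM on the naive side, a rise of 0.96 (SE 0.0867, adjusted p = 1.122e-07). Slc16a3 was 160.3, 163 and 190.2 CPM against 75.1, 107 and 109 CPM, a rise of 0.82 (SE 0.0858, adjusted p = 7.306e-07). Pfkp was 25.8, 35.1 and 39.1 CPM against 53.7, 80.9 and 101 CPM and fell by 1.19 (SE 0.0969, adjusted p = 2.512e-08), the single member past 2-fold (background 6.27%). The sides did not overlap for any of these 3 genes. Ldhb fell by 0.86 (SE 0.0895, adjusted p = 7.488e-07), Ldha rose by 0.35 (adjusted p = 0.000177) and Hk2 by 0.38 (adjusted p = 0.000305).

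Slc2a3 fell by 0.25 on the primed side (adjusted p = 0.00439) and Slc16a1 rose by 0.35 (adjusted p = 0.0145). Both calls ended without Type II (-0.21, adjusted p = 0.190, and 0.25, adjusted p = 0.417), and with plain totals Slc2a3 was -0.15 (adjusted p = 0.0655). Pkm (0.14), Pfkl (0.06) and Hk1 (-0.39) did not pass, at adjusted p = 0.0832, 0.579 and 0.235, but Pkm did with plain totals (0.24, adjusted p = 0.00245). As shares of their pairs, Pfkl was 82.2% ± 0.56 on the primed side and 65.7% ± 1.34 on the naive side, Ldha 92.2% ± 2.11 and 84.1% ± 0.94, and Slc2a1 34.8% ± 7.08 and 18.5% ± 2.54 (SD, n = 3). The primed side was thus nearer to the other states than the naive side was in the phosphofructokinase and dehydrogenase pairs. Of the genes of the primed score, Pou3f1 was higher in TE than in EPI. It was 37.3, 54.8 and 73.5 unscaled CPM in TE against 31.9, 44.5 and 24.8 CPM in EPI. Otx2, Fgf5 and Nodal were lower in TE in each library. The part of Pou3f1 in this nearness was not tested.

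Types were compared within a state where both libraries had at least 50 barcodes, as log2 ratios with 10 CPM added and with no test, since each type is 1 library. In EPI, Type III exceeded Type I in 9 of the 10 genes. The median log2 ratio of all genes was -0.02 there, and the share of all genes that were higher was not counted. Of the 9 that reached 20 CPM, 3 were past 1.5-fold (background 1.05%): Slc2a1 at 267 against 164 CPM (0.67), Pfkl at 202 against 122 CPM (0.68) and Pfkp at 99.99 against 53.1 CPM (0.80). In TE, 3 of 8 were past it (background 2.63%): Slc2a1 at 602 against 379 CPM (0.65), Slc16a3 at 180 against 94.5 CPM (0.86) and Pfkl at 135 against 85.0 CPM (0.61). With plain totals Pkm joined them in TE (0.64).

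Type II exceeded Type I in Slc16a3 (0.66) and Pfkl (0.60) in TE (background 0.631%), and with plain totals Pfkp passed too. In these TE sums 9 of the 10 genes were higher. The median log2 ratio of all genes was -0.009, and the share of all genes that were higher was not counted. Of the 9 measured, 0 were past 1.5-fold in VE (background 0.109%), early PrE (0.334%) or EPI (0.0603%). Between Types III and II 0 of 9 passed in TE (1.29%) and in EPI (1.08%), while Ldhb was lower in TE of Type III, at 49.3 against 99.9 CPM (-0.89). Hk2 went the other way, lower in Type II than in Type I in all 4 states, at log2 ratios from -0.47 in EPI to -0.17 in TE, each under 1.5-fold. Epiblast markers in TE sums were also higher in Types II and III than in Type I (940 and 1359 against 487 CPM), and their part in the TE ratios was not tested. Barcodes of Type III were deeper, with a median of 71540 UMIs against 52220 and 41490, and the part of depth was not tested.

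The rest of the pathway was described by lists, which leave out the glycolysis gene Aldoa because it is not a single symbol among the counted genes. Of 15 tested genes of core glycolysis besides the members, 3 were higher and 10 lower in VE than in EPI (median -0.46), 2 higher and 9 lower in early PrE (-0.34) and 1 higher and 8 lower in TE (-0.23, or 4 higher and 5 lower with a median of 0.097 with plain totals), where the medians of all genes were 0.00, 0.02 and -0.02. Of all genes 38%, 36.1% and 28% were higher and 37.7%, 34.5% and 30.2% lower in these comparisons, the same background as for the lists that follow. Eno1, the widespread enolase, whose counts may be shared with its near-identical copy Eno1b, fell from 1372 ± 535 CPM in EPI to 539 ± 142 CPM in VE, by 1.30 (SE 0.0718, adjusted p = 3.475e-10), and fell by 1.02 in early PrE and by 0.93 in TE. Eno3, the muscle enolase, was 31.5 ± 4.74 CPM in TE against 8.41 ± 1.59 CPM in EPI (1.82, adjusted p = 5.111e-06) and 0.989 ± 0.868 CPM in VE. Tpi1, triosephosphate isomerase, rose in VE (0.64, adjusted p = 1.907e-06) and in early PrE (0.50).

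Of 10 other transporter genes tested, 5 were higher and 3 lower in VE than in EPI, 5 higher and 4 lower in early PrE and 2 higher and 3 lower in TE (5 and 2 with plain totals). Slc2a2, which encodes GLUT2 of liver and absorptive epithelia, was 14.7, 22.9 and 31.4 CPM in VE, at most 1.31 CPM in early PrE and at most 0.142 CPM in TE and EPI. Slc16a13 and Slc16a10, carriers of the lactate carrier family of which the latter moves aromatic amino acids, rose by 3.16 and 2.54 in VE over EPI (adjusted p = 5.855e-10 and 4.366e-10). The 3 genes lower in VE than in EPI were past 2-fold, as were the 5 higher ones, so the list did not go 1 way. Slc16a1, Slc2a2 and Emb were each highest in VE.

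Among 15 regulators, 9 were higher and 4 lower in VE than in EPI, 7 and 3 in early PrE and 6 and 3 in TE (7 and 2 with plain totals). Epas1, which encodes HIF-2α, was 67.1 ± 26.6 CPM in VE, 43.7 ± 25.8 CPM in early PrE, 3.15 ± 1.86 CPM in TE and 5.12 ± 1.24 CPM in EPI, a rise of 3.81 in VE over EPI (SE 0.166, adjusted p = 2.818e-11). Pfkfb3, which makes the activator of phosphofructokinase, was highest in TE at 18.5 ± 5.32 CPM against 3.67 ± 0.68 CPM in EPI (2.29, adjusted p = 9.966e-08). Mycn was lower than in EPI in VE, early PrE and TE (-1.24, -0.60 and -1.18), and Lin28b, a translational regulator of glycolytic genes, in VE and early PrE (-2.39 and -1.82).

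Of 13 genes of pyruvate entry into mitochondria, 2 were higher and 10 lower in VE than in EPI (median -0.87), 2 and 8 in early PrE (-0.41) and 2 and 7 in TE (-0.62, or 4 and 5 with a median of -0.30 with plain totals). Pdk1, a kinase that inactivates pyruvate dehydrogenase, was 131 ± 8.53 CPM in EPI against 30.4 ± 5.27 CPM in VE, 29.8 ± 2.70 CPM in early PrE and 38.6 ± 7.95 CPM in TE, a fall of 2.01 in VE (SE 0.106, adjusted p = 2.07e-10). The subunits of the pyruvate carrier went apart. In TE Mpc1 was 16.7 ± 3.00 CPM against 39.1 ± 0.89 CPM in EPI (-1.22, adjusted p = 1.363e-07), while Mpc2 was 34.0 ± 4.78 CPM against 25.0 ± 2.11 CPM (0.45, adjusted p = 0.000266). Mpc2 was higher still in VE, at 55.6 ± 6.33 CPM. On the primed side of the epiblast Mpc1 fell by 1.06 (adjusted p = 1.443e-06), and Mpc2 by 0.41 (adjusted p = 0.0287, and 0.104 with plain totals).

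The genes most like each member were ranked by Pearson correlation of log2(CPM + 10) over the 12 sums, each centred by library, among 5016 genes of at least 20 CPM. These sums share their libraries and hold 4 states, so many genes reach high values and no p is given. Slc16a1 was most like Gpx3 (0.998), Pla2g12b (0.998) and Maf (0.997), and Slc16a3 most like Snhg11 (0.980), Ccdc88a (0.9745) and Dicer1 (0.969). Slc2a3 was most like Tnfrsf12a (0.994), Pfkp most like Snrpd2 (0.992) and Pkm most like Ppan (0.987) and Eno1 (0.986). For Slc2a1 the closest was Tbc1d10b (0.9535), for Hk2 Cdk11b (0.9795), for Pfkl Usp48 (0.956) for Ldha Ndufb4 (0.973) and for Hk1, itself under 20 CPM, Wfdc2 (0.948). Among the members, Slc16a1 and Slc16a3 were most opposed (-0.965), Slc16a1 and Slc2a3 ran together (0.868), and so did Pfkp and Pkm (0.928).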

How the data were processed

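The data are UMI counts per gene and barcode, which the authors deposited as 1 matrix for each of 3 libraries. Per the labels' protocols the libraries were 10x Chromium 3′ v3.1. The file headers name Cell Ranger 6.0.1 and the submitters' processing notes mm10, and the sources used here do not state how cell barcodes were chosen.

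Counts were summed per library and state and tested with edgeR 4.0.16 (R 4.3.3; TMM, filterByExpr, glmQLFit, Benjamini-Hochberg), with library as a block because the 4 states of a library came from the same suspension. The common dispersion was 0.00558. Standard errors are the log2 fold change divided by the square root of F. Pairs had 0.5 UMI added per gene and 13824 permutations. Library ratios needed 20 CPM in 1 library, and intervals cover counting error only. Named genes are all members and up to 4 called genes of each list with the highest and 4 with the lowest log2 fold change, and 1 gene that this rule names is not reported here. DESeq2 1.42.0 and the other alternatives are in the closing section. The scripts were tested on simulated counts. The members, lists and tests were chosen with earlier results of these data known. Libraries were assigned by title. Of 91 listed pathway genes 90 were used, and Aldoa was left out because it is not a single symbol among the counted genes.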

Additional observations from a re-analysis of the deposited data

Results flagged for a closer look

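In 3 comparisons of states that were not called, at least 1 library went each way with 95% Poisson intervals of the states that did not overlap, and the difference between libraries was not tested. Libraries also split in direction in other comparisons that were not called, without such a separation each way. The log2 ratio of Pfkl in VE over EPI was 0.16 in Type I, -0.14 in Type II and -0.27 in Type III. That of Slc2a1 in early PrE over EPI was 0.26, -0.083 and -0.86, with 45 early PrE barcodes in Type III. That of Pkm in early PrE over TE was 0.13, -0.068 and 0.054.

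Barcodes of 1000 to under 10000 UMIs, which none of the comparisons use, also held the 10 genes. Their summed level was 3579, 3500 and 3859 CPM in Types I, II and III, from 3943, 6349 and 966 barcodes, against 4479, 4850 and 5064 CPM in the deep barcodes and a floor of 3 UMIs, which is 0.325, 0.202 and 1.21 CPM. Slc16a1 was 163, 133 and 74.9 CPM in them.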

How the results depend on the processing

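The counts of members called stayed within 1.5 times in every setting tried, with these exceptions. With only barcodes above a single threshold, which left 7, 5 and 1 VE barcodes, VE over early PrE gave 2 and VE over TE gave 4. Without Type II VE over early PrE gave 4, and over the 3 settings without 1 library its counts ran from 4 to 9. Pairing by library comes from the design, and without the replicate block the epiblast sides gave 4, while counts in the comparisons of states were within 1.5 times. For the pairs, leaving out a library allows no p under 0.0417, and adjusted p-values ran from 0.0694 to 0.104 while the differences stayed at 1.387 to 1.864 for Slc2a1 to Slc2a3, 4.873 to 5.026 for Slc16a1 to Slc16a3, 1.999 to 2.177 for Pfkl to Pfkp and 1.846 to 2.185 for Ldha to Ldhb. Hk1 to Hk2 passed at 0.6888 with thinned barcodes (adjusted p = 0.00434) and turned to -0.872 (adjusted p = 0.0347) with barcodes above a single threshold, where the other 4 pairs still passed but Ldha to Ldhb went down to 1.100 (adjusted p = 0.0399). Each adjusted p is that of the test over all 4 states.

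Single values also turned. With barcodes above a single threshold VE over EPI was -0.63 for Slc2a1 and -0.46 for Ldha, VE over early PrE was -0.045 for Slc2a1, 0.25 for Pfkp and -0.18 for Ldha, and VE over TE was -0.15 for Pfkl and 0.53 for Ldhb. With plain totals Pfkl in VE over EPI was 0.092, Hk1 in early PrE over EPI 0.014, Hk2 in TE over EPI 0.19 and Pkm in early PrE over TE -0.13. Without Type III Pfkl in VE over EPI was 0.018 (-0.20 without Type I), and Slc2a1 and Hk1 in early PrE over EPI were 0.095 and 0.016 (-0.43 without Type I and -0.49 without Type II). Pkm in early PrE over TE was -0.017 with RLE size factors, -0.017 with DESeq2 and -0.042 with thresholds lowered 2 times. In early PrE over EPI, Slc2a1 was 0.0061 with thresholds 2 times as high and Hk1 0.13 with thinned barcodes. The cause was not tested. No replicate block ended 12 calls and left the other 65 values on their side. The setting without barcodes above the Pou5f1 threshold was chosen after seeing the data, and gained 2 calls, Slc16a1 in TE over EPI (0.22) and Pfkp in VE over TE (0.29). Depth limits Hk1, and Type III in VE rests on 19 barcodes.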

Other observations

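Lists that branch from glycolysis also differed between states. Of 10 tested glycogen genes 7 were higher and 2 lower in VE than in EPI, 6 and 1 in early PrE and 7 and 1 in TE (7 and 0 with plain totals), with medians of 0.89, 0.76 and 0.80. Gyg, which encodes glycogenin, the primer of glycogen, was 43.2 ± 5.17 CPM in VE, 31.8 ± 3.03 CPM in early PrE, 18.8 ± 1.34 CPM in TE and 9.38 ± 0.45 CPM in EPI (SD, n = 3), a rise of 2.24 in VE over EPI (SE 0.106, edgeR adjusted p = 6.651e-11). Pygl, the liver phosphorylase, was 7.84 ± 3.34 CPM in TE and 0.312 ± 0.365 CPM in VE. Of 5 tested gluconeogenesis genes, Slc37a4 and G6pc3, which act together in releasing glucose from glucose 6-phosphate, and Fbp2 rose in VE (2.08, 1.51 and 2.15) and Fbp1 and Pck2 fell (-3.56 and -1.82). In the pentose phosphate list 4 of 8 were higher and 2 lower in VE (5 and 1 with plain totals), and 1 higher and 4 lower in TE (4 and 2 with plain totals), with Rpia rising in VE, early PrE and TE (0.91, 1.29 and 0.53).

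TE barcodes were divided, after their values were seen, by whether Rhox6 and Rhox9 exceeded Anxa1 and Sfn. On the annexin side Slc2a3 was 1879, 1975 and 2093 unscaled CPM in Types I, II and III, against 936, 1204 and 809 CPM on the Rhox side, and Slc16a3 was 132, 193 and 243.5 CPM against 71.5, 137 and 109.9 CPM. Slc16a1 was 58.1, 53.9 and 55.0 CPM against 81.3, 94.1 and 79.1 CPM. The annexin side held 97, 160 and 49 barcodes and the Rhox side 66, 80 and 18, and these values are given with no test.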
